A study of Mus musculus with 4 samples.

Results

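The 6 genes described here, Lin28a, Lin28b, Hmga2, Igf2bp1, Igf2bp2 and Igf2bp3, belong to the group known as developmental timing genes. They were chosen by name, 6 of the 20719 genes listed in the 4 libraries, and all 6 passed the filter on low counts in every comparison below. Single cells from mouse embryo heads at E10.5 were sequenced in 2 libraries labelled Apcdd1+/-, with 1 altered copy of Apcdd1, an inhibitor of Wnt signalling, and in 2 wild type (WT) libraries. The tissue label is embryonic brain for all 4 libraries, while the protocol names the head, and cells with markers of mesenchyme, surface epithelium, endothelium, macrophages and red cells were present. The sources used here give no strain, sex or number of embryos or litters behind a library, so the spread between libraries may be technical. Between genotypes, p-values measure that spread. Between groups of cells, each library was its own block. There, p-values measure how much a difference varied between these libraries, with that variation pooled over all groups of a fit. Each cell was placed in 1 of 9 classes from the number of class markers with at least 1 unique molecular identifier (UMI). The gates took 9806 neural progenitor cells, 2192 neuroblasts (cells with proneural markers), 1557 neurons, 2743 mesenchyme, 114 neural crest or glia, 713 epithelium, 218 endothelium, 167 macrophage and 126 erythroid cells. A further 414 cells met more than 1 gate and 6209 met none, and these entered no comparison of classes.

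LIN28A and LIN28B are RNA-binding proteins of embryonic cells that block the maturation of let-7 microRNAs. They bind the terminal loop of the let-7 precursor. LIN28A brings in terminal uridyltransferases (TUT4 and TUT7), whose uridine tail marks the precursor for the nuclease DIS3L2. Mature let-7 in turn represses messenger RNAs that hold sites for its seed, among them those of Lin28a, Lin28b, Hmga2 and the Igf2bp genes, so that each side of the pair restrains the other. HMGA2 is a chromatin protein that bends AT-rich DNA and is known in mice for the self-renewal of young neural stem cells. IGF2BP1 to IGF2BP3 bind messenger RNAs and act on their stability, transport and translation.

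Libraries held 3122 to 9735 cell barcodes and 55393605 to 96822641 UMIs, with a median of 8686 to 16260 UMIs per barcode, and 6 to 25 bead barcodes were shared between any 2 libraries. Apcdd1 measured 77.4 and 49.5 CPM (UMIs per 1000000) over all cells of the Apcdd1+/- libraries against 63.4 and 60.8 CPM in the WT libraries, a log2 difference of 0.083 (SE 0.23, adjusted p = 1). The sources used here do not say which part of the gene is altered, so this level does not check the labels. Levels below are CPM of the UMIs summed over a class in 1 library, so they are a gene's share of that class's RNA, with SD over 4 libraries. Differences are log2, from edgeR's quasi-likelihood test on those sums with Benjamini-Hochberg adjustment over all genes tested. Every comparison of classes was made against the same neural progenitor libraries, so the comparisons share them. Scaling by TMM (trimmed mean of M-values) moved the median gene by more than 0.1 in 4 classes: by 1.15 in erythroid, 0.35 in macrophage, 0.18 in endothelium and 0.13 in neural crest or glia cells, so differences in these classes are relative to that shift, and for a single gene the scaling can matter more or less than for the median.

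The sequences that tie these genes together are the let-7 seed and the sites it can pair with. RefSeq (GRCm38.p6) listed 9 mature let-7 and miR-98 sequences of the 5p arm, which share 1 seed. They are shown because the seed, bases 2 to 8 in capitals, is the part that pairs with the members' messages. The bases outside the seed vary between the 4 shown.
mmu-let-7a-5p: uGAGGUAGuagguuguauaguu
mmu-let-7d-5p: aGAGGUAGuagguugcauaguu
mmu-let-7g-5p: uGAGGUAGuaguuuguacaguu
mmu-miR-98-5p: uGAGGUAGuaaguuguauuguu

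The terminal loop, the stretch between the 2 arms of the precursor, is where LIN28 proteins bind, in part through the letters GGAG. Of 12 let-7 and miR-98 hairpins, 9 held GGAG in the loop, against 8.07% of the loops of all 644 hairpins with 2 annotated arms. The loops of let-7g and let-7a-1, with GGAG in capitals, stand beside that of let-7b, in which these letters were not found.
Mirlet7g (chr9, plus strand): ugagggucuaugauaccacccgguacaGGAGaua
Mirlet7a-1 (chr13, minus strand): uuagggucacacccaccacugGGAGauaa
Mirlet7b (chr15, plus strand): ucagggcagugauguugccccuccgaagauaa

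The 3′ untranslated regions of the members (GENCODE vM21, GRCm38, the build mm10 of the deposited data) were searched on the transcript strand for the matches to that seed, CTACCTCA (8mer), CTACCTC (7mer-m8) and TACCTCA (7mer-A1), each position counted once. Hmga2 held 7 sites, Lin28b and Igf2bp1 held 5 each, Lin28a and Igf2bp2 held 2 each and Igf2bp3 held 1. For every gene, members included, the longest annotated region was taken. Of all 21039 regions searched, 14.9% held at least 1 site, and 17 genes held 5 or more. Among regions of similar length, the share with a site was 27.5% for the length of Hmga2, 39.3% for Lin28b, 52.9% for Igf2bp1, 26.6% for Lin28a, 19.3% for Igf2bp2 and 23.0% for Igf2bp3. Each member had at least 1 site of the 8mer class, as had 3.06% of all regions searched, of any length. The first 8mer in each message is shown with 10 flanking bases, the site in capitals.
Lin28a (chr4:134005179-134005206, minus strand): gcctgttgaaCTACCTCAtttttgccga
Lin28b (chr10:45381012-45381039, minus strand): ggcgggaagtCTACCTCAtgcaagcaca
Hmga2 (chr10:120364214-120364241, minus strand): cattcaatttCTACCTCAgcatcagttg
Igf2bp1 (chr11:95961768-95961795, minus strand): gcgaagtaaaCTACCTCAaggtgtgaag
Igf2bp2 (chr16:22059463-22059490, minus strand): caaataaaagCTACCTCAggtgtttttt
Igf2bp3 (chr6:49086777-49086804, minus strand): ttttactcaaCTACCTCAggtattcagt
A match describes the letters of the message and was not measured as a site in these cells. Mature let-7 itself was not measured in these libraries. All 6 members lie on the minus strand. The Igf2bp3 gene overlaps Malsu1 on the plus strand, which measured 86.2 CPM in neurons and 112 CPM in progenitors. The 3′ untranslated region of Hmga2 overlaps 1700006J14Rik on the plus strand, and that of Igf2bp1 overlaps Mir3063 on the minus strand. Neither 1700006J14Rik nor Mir3063 is among the genes listed in the libraries. The sources used here do not say whether the counting used strand, so reads from overlapping genes cannot be told apart.

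Lin28a was the member most raised in neurons over progenitors. Neurons had 132 and 132 CPM in the Apcdd1+/- libraries and 138 and 121 CPM in the WT libraries. Neural progenitors had 41.6 and 38.5 CPM in the Apcdd1+/- libraries and 32.5 and 48.2 CPM in the WT libraries. All 4 neuron values lay above all 4 progenitor values, and the log2 difference of neurons from progenitors was 1.70 (SE 0.09, adjusted p = 3.28e-23), with a 95% interval of 1.52 to 1.88. The test called 64.7% of all genes tested (34.3% higher and 30.3% lower) in this comparison, so a call on its own is common here. Neuroblasts, the stage between, did not lie between: Lin28a was at 28.5, 20.1, 18.4 and 29.6 CPM in Apcdd1+/- replicates 1 and 2 and WT replicates 1 and 2, below progenitors in every library, with a log2 difference of -0.71 (SE 0.11, adjusted p = 3.7e-07). That comparison called 24.5% of all genes tested (13.2% higher and 11.3% lower). The neuroblast difference was -0.71 (adjusted p = 0.0867) among midbrain cells and -0.18 (adjusted p = 0.653) among telencephalon cells, and was called in neither. Over the 9 classes, neurons came first, then epithelium at 57.9 ± 9.96 CPM, then progenitors at 40.2 ± 6.54 CPM, with no overlap between the libraries of the first pair or the second. The next classes, neural crest or glia, mesenchyme, neuroblasts and endothelium, had means of 18.3 to 29.2 CPM, and each overlapped its neighbour, neural crest or glia overlapping progenitors. Macrophages at 5.04 ± 2.82 CPM and erythroid cells, with 3 UMIs in 126 cells, were lowest.

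**Figure D1:**
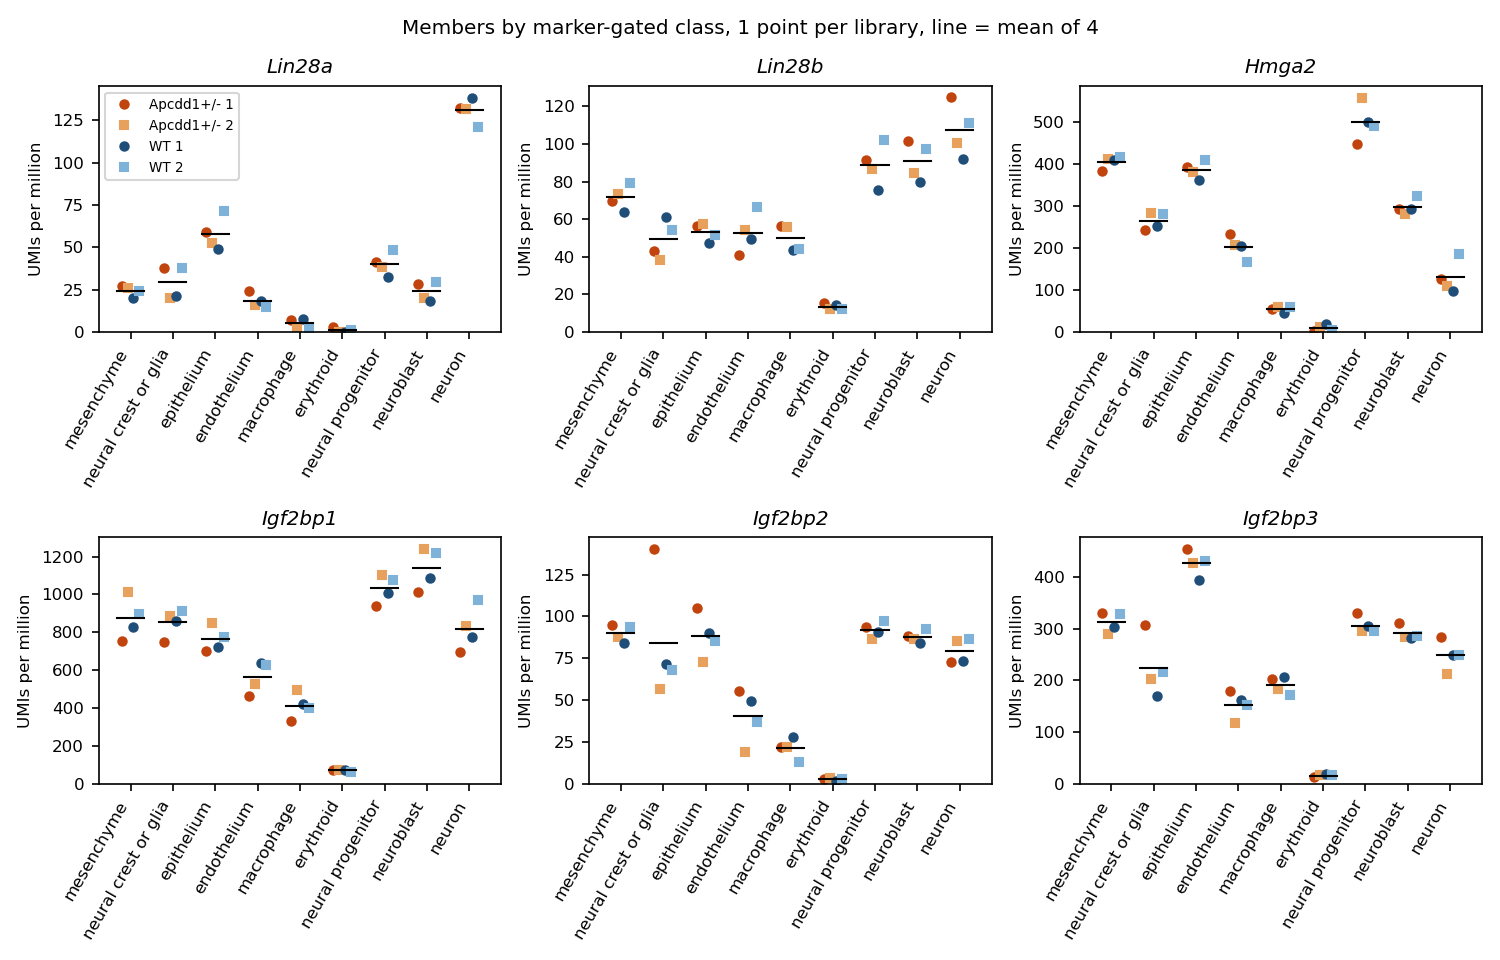
Level of each gene in 9 marker-gated classes (x axis) in CPM (y axis, from 0, a scale of its own in each panel), 1 point per library with Apcdd1+/- in orange and WT in blue, and a line at the mean of 4 libraries. Lin28a is highest in neurons (means of 131 CPM against 40.2 CPM in progenitors), Hmga2 is highest in progenitors, and every gene is lowest in erythroid cells.

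The rise was also seen as cells, at equal depth. With each cell thinned to 2000 UMIs, 19.6% of 1519 neurons had a Lin28a UMI (16.6 to 22.4% over libraries), against 7.05% of 9799 progenitors (5.72 to 8.32%). Erythroid cells, lowest in Lin28a CPM, had it in 1 of 124 cells (0.806%), and macrophages in 1 of 167 cells (0.599%). Unthinned, the shares were 50.9% of neurons and 28.9% of progenitors, at median depths of 10072 UMIs in neurons, 10323 UMIs in progenitors and 19351.5 UMIs in erythroid cells. Dhdds, the next gene on the same strand, begins 2412 bases beyond the 3′ end of Lin28a and measured 46.1 CPM in neurons and 46.7 CPM in progenitors.

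Neural cells ordered by how many of 12 neuron markers they held, after thinning to 5000 UMIs with shallower cells left out, show where along the path Lin28a and Hmga2 change. The markers set this order, so their own course is no result, and the values are descriptions with no test. In CPM, the largest drop of Hmga2 came before the main climb of Lin28a, but Hmga2 fell further while Lin28a climbed. In cells with 3 or 4 neuron markers, Lin28a was at 34.5, 26.4, 22.4 and 34.2 CPM (Apcdd1+/- replicates 1 and 2, then WT replicates 1 and 2) and Hmga2 at 367, 479, 324 and 291 CPM. In cells with 5 or 6 markers, Hmga2 was at 101, 161, 93.8 and 108 CPM and Lin28a at 30.9, 35.8, 37.5 and 57.7 CPM, above the bin before it in 3 of 4 libraries. At 9 to 12 markers, Lin28a reached 226, 182, 219 and 242 CPM, while Hmga2 was at 28.9, 16.9, 39.6 and 11.4 CPM. Each of the 4 libraries thus had its highest Lin28a and its lowest Hmga2 in the last bin. Igf2bp1 was within 912 to 1281 CPM in the bin of 5 or 6 markers and at 454, 636, 545 and 798 CPM in the last, the lowest bin of every library. Lin28b showed no step of that kind, with 65.4 to 92.5 CPM in cells with no neuron marker and 122, 101, 90.9 and 164 CPM in the last bin.

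**Figure D2:**
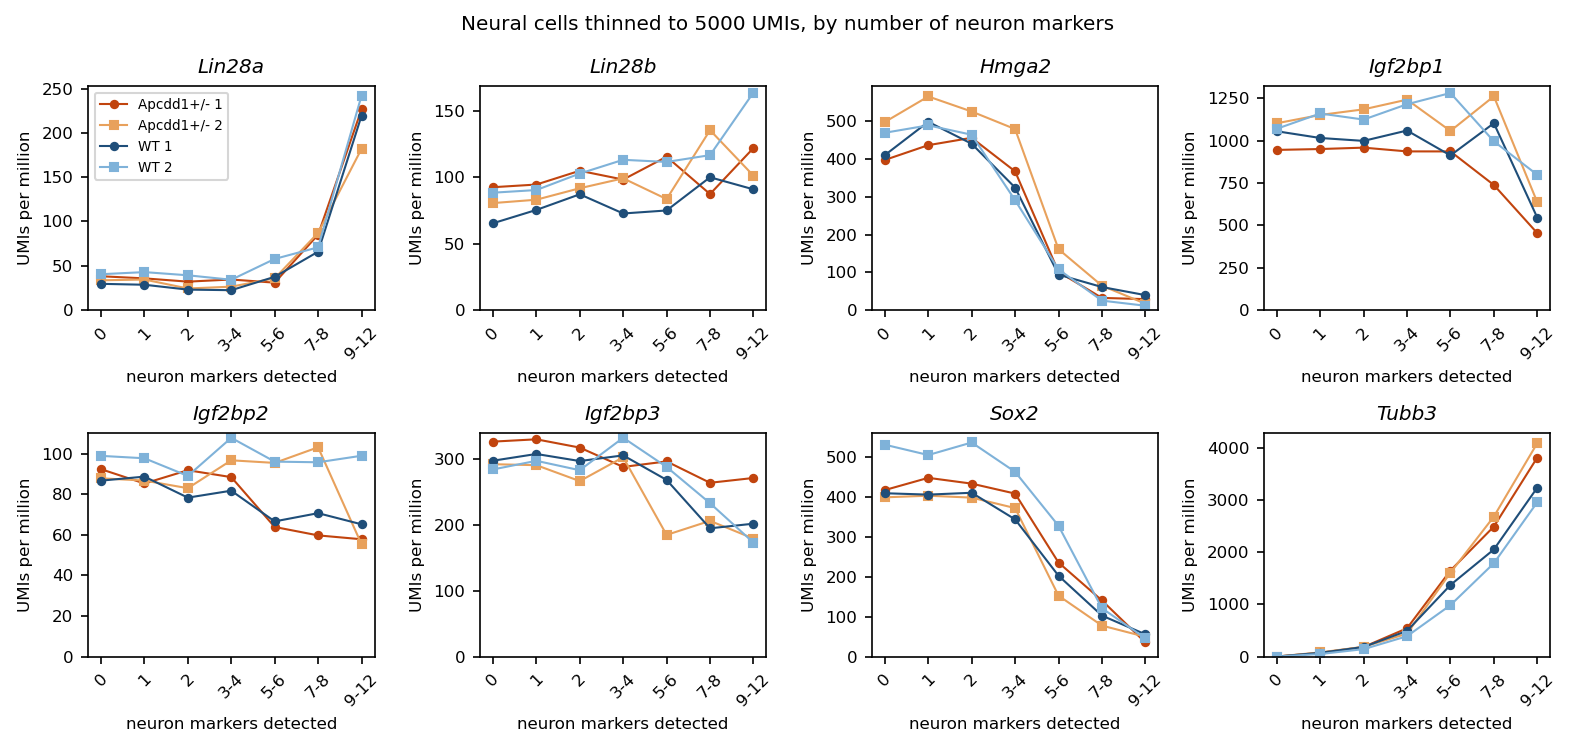
CPM (y axis, from 0) of the 6 genes and of Sox2 and Tubb3 in neural cells thinned to 5000 UMIs, by the number of neuron markers detected per cell (x axis), 1 line per library. In CPM, Hmga2 drops most between 3-4 and 5-6 markers and falls further at 7-8 markers. Lin28a climbs at 7-8 and 9-12 markers, and the 4 libraries reach 182 to 242 CPM in the last bin. Tubb3 is itself 1 of the markers, and Sox2 is a progenitor marker.

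The neuron gate still held cells with progenitor RNA: Sox2 was at 163 ± 47.4 CPM in neurons and 438 ± 56.6 CPM in progenitors, and 364 of 1557 neurons carried 4 or more of 10 progenitor markers. Doublets were not called. Neurons were therefore also split by those markers, an addition made after the data were seen. In the 1193 neurons with fewer progenitor markers, Lin28a was at 167, 151, 179 and 167 CPM and Hmga2 at 35.8, 30.8, 31.8 and 27.5 CPM. In the other 364, Lin28a was at 70.6, 58.8, 57.5 and 64.8 CPM and Hmga2 at 289, 413, 224 and 381 CPM. The differences of neurons with fewer progenitor markers from progenitors were 2.06 for Lin28a (adjusted p = 1.87e-27) and -3.99 for Hmga2 (adjusted p = 2.37e-38), each further from 0 than over all neurons.

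Lin28a was uneven among neurons. Sets of neurons with at least 1 UMI of a regional or subtype factor were compared. The factors were chosen after the values were seen, a neuron can be in several sets, and no test is given. The sets include the 364 neurons with 4 or more progenitor markers. Those had Lin28a at 62.9 against 166 CPM in the other neurons, and Hmga2 at 327 against 31.5 CPM. Their share in each set, and its part in these levels, was not tested. Of the sets given here, the highest level was in neurons with Reln, which encodes the secreted protein of Cajal-Retzius cells, at 242 ± 10.7 CPM (SD over 4 libraries, 145 neurons). Neurons with Lhx9, a LIM homeobox factor, had 228 ± 13.1 CPM, and those with Otp, a factor of hypothalamic neurons, 224 ± 12.7 CPM. In each of these 3 sets every library, from 209.6 CPM up, was above the highest library of the progenitor class. Neurons with Pou4f1, a factor of sensory and tectal neurons, had 177 ± 25.8 CPM. Neurons with Isl1, found in cranial motor and sensory neurons, had 86.9 ± 15.1 CPM, and those with Nkx2-1, a factor of ventral forebrain, 79.5 ± 17.7 CPM, the lowest of the sets given here. Hmga2 did not follow the same order: of these sets it was highest with Nkx2-1 at 260.0 ± 132 CPM, and it was low both with Lhx9 at 49.5 ± 16.2 CPM and with Isl1 at 50.9 ± 12.3 CPM.

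**Figure D3:**
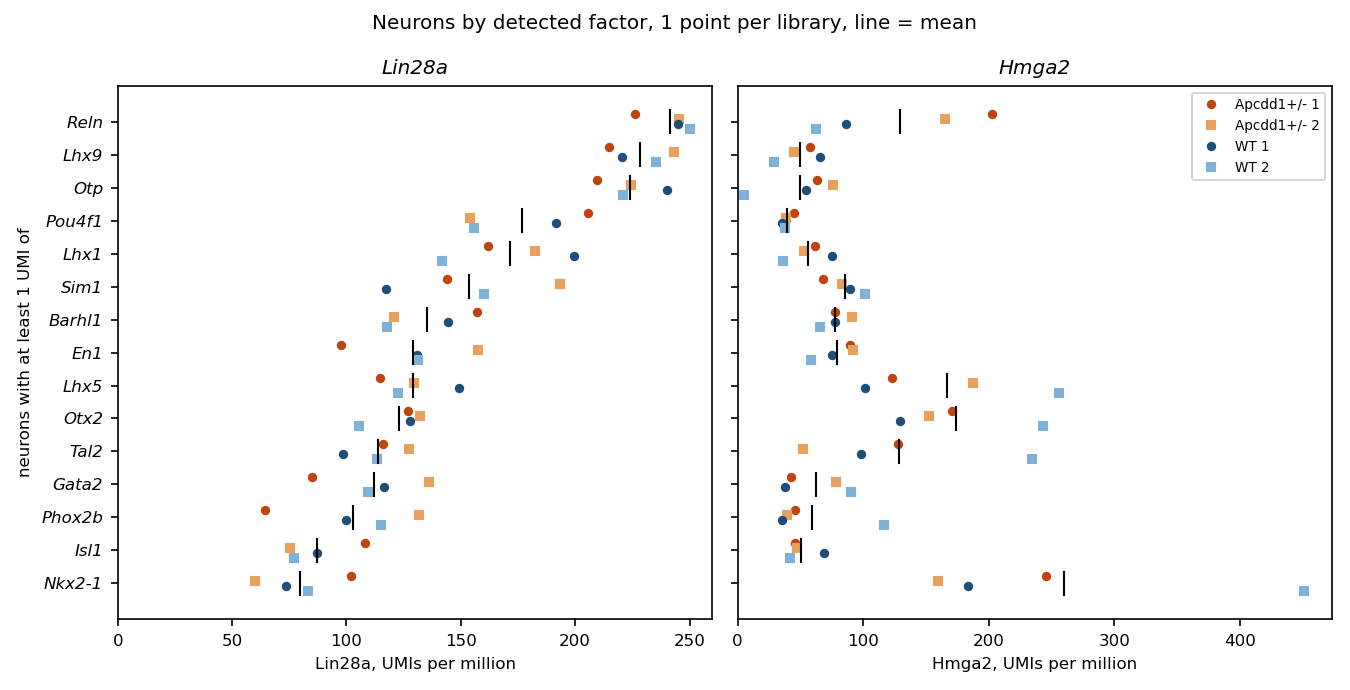
Lin28a (left) and Hmga2 (right) in CPM (x axis, from 0) in neurons with at least 1 UMI of the factor named on the y axis, 1 point per library with at least 10 such neurons and a line at their mean. Lin28a spans 242 CPM in the Reln set to 79.5 CPM in the Nkx2-1 set, where Hmga2 is highest among the sets drawn.

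Lin28b, the paralog of Lin28a with the same role against let-7, varied little along the neural path. It measured 125, 100.4, 92.2 and 111 CPM in neurons of Apcdd1+/- replicates 1 and 2 and WT replicates 1 and 2, against 91.4, 86.6, 75.3 and 102 CPM in their progenitors. The neuron and progenitor ranges overlapped, and neurons were higher in each library on its own, by a log2 difference of 0.25 (SE 0.07, adjusted p = 0.00256). That call was lost without Apcdd1+/- replicate 1 (0.18, adjusted p = 0.0612) and without WT replicate 1 (0.18, adjusted p = 0.0699), and with DESeq2 (0.099, adjusted p = 0.255), whose size factors moved the median gene by -0.15, and without the library block (0.25, adjusted p = 0.0541). It was called at 0.38 with cells thinned and at 0.48 within midbrain. Neuroblasts had 90.9 ± 10.3 CPM and did not pass the test. Below the neural classes came mesenchyme at 71.5 ± 6.61 CPM, separate from the next. Epithelium, endothelium, macrophages and neural crest or glia followed at 49.3 to 53.1 CPM with overlapping ranges. Erythroid cells at 13.5 ± 1.47 CPM were separate from all. Lin28b was lower in epithelium than in progenitors, at -0.78 (SE 0.09, adjusted p = 1.13e-10), where Lin28a was higher, at 0.50 (SE 0.11, adjusted p = 0.000141); with DESeq2 the Lin28a call in epithelium was lost (0.28, adjusted p = 0.111), as it was with cells thinned (0.45, adjusted p = 0.0797).

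Hmga2 declined along the neural path. It measured 446, 557, 499 and 490.1 CPM in progenitors of Apcdd1+/- replicates 1 and 2 and WT replicates 1 and 2, 291, 281, 293 and 323 CPM in their neuroblasts, and 127, 109, 96.6 and 186 CPM in their neurons. The 3 stages did not overlap. Against progenitors the log2 difference was -0.73 (SE 0.09, adjusted p = 2.97e-09) in neuroblasts and -1.98 (SE 0.10, adjusted p = 1.02e-24) in neurons. Over the 9 classes progenitors were highest, followed by mesenchyme at 404 ± 15.0 CPM and epithelium at 386 ± 20.5 CPM, which overlapped. Neuroblasts overlapped with neural crest or glia at 264 ± 20.2 CPM, and endothelium at 203 ± 27.2 CPM overlapped with neurons at 129.7 ± 39.6 CPM. Macrophages at 54.6 ± 6.52 CPM and erythroid cells at 9.92 ± 7.69 CPM were separate from the rest and from each other.

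Hmga2 also differed between regions, by about as much as between all gated neurons and progenitors (-1.98). Neurons with fewer progenitor markers were further from progenitors, at -3.99. Progenitors were also gated as telencephalon, midbrain or hindbrain by regional factors (2065, 838 and 99 cells; hindbrain from 3 libraries, since Apcdd1+/- replicate 1 had 2 such cells). Midbrain progenitors had 263 and 267 CPM in the Apcdd1+/- libraries and 255 and 259.7 CPM in the WT libraries. Telencephalon progenitors had 879 and 1188 CPM in the Apcdd1+/- libraries and 1088 and 979.8 CPM in the WT libraries. The midbrain values were within 255 to 267 CPM in all libraries, below every telencephalon value, with a log2 difference of -1.99 (SE 0.05, adjusted p = 1.61e-36). Hindbrain progenitors had 320.0 CPM in Apcdd1+/- replicate 2 and 294 and 321 CPM in WT, a log2 difference from telencephalon of -1.80 (SE 0.08, adjusted p = 2.39e-25). The test called 16.3% of all genes tested (8.89% higher and 7.42% lower) between midbrain and telencephalon, and 8.98% of all genes tested (4.84% higher and 4.13% lower) between hindbrain and telencephalon.

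Lin28b was the other member that was lower outside the telencephalon, at 69.5 ± 5.94 CPM in midbrain and 91.6 ± 12 CPM in telencephalon progenitors, with log2 differences of -0.44 (SE 0.08, adjusted p = 5.28e-05) for midbrain and -0.67 (SE 0.17, adjusted p = 0.00421) for hindbrain. The midbrain call was lost with the stricter gate (-0.27, adjusted p = 0.166) and the hindbrain call with cells thinned (-0.95, adjusted p = 0.333). Igf2bp1 was slightly higher outside the telencephalon, at 0.16 (SE 0.04, adjusted p = 0.0012) for midbrain and 0.22 (SE 0.05, adjusted p = 0.00177) for hindbrain. With DESeq2 these were 0.11 (adjusted p = 0.0601) and 0.14 (adjusted p = 0.109), and no longer called, nor were they with cells thinned or without the library block. Igf2bp3 was higher in midbrain at 0.16 (SE 0.05, adjusted p = 0.0271), a call lost without Apcdd1+/- replicate 1 (0.17, adjusted p = 0.111), Apcdd1+/- replicate 2 (0.14, adjusted p = 0.124) or WT replicate 1 (0.16, adjusted p = 0.112), and also with DESeq2, with cells thinned or without the library block. Lin28a and Igf2bp2 passed in neither comparison, with differences of -0.27 and -0.20 for midbrain and -0.35 and -0.13 for hindbrain. With the stricter gate, Igf2bp2 was called lower in midbrain (-0.34, adjusted p = 0.036), and Lin28a was at 0.21 there, a change of sign.

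The 2 axes were then read together, within the midbrain and the telencephalon gates, a comparison added after the data were seen. Hmga2 also differed by region among cells of the neuron gate. Midbrain neurons had 65.1, 101, 81.1 and 81.5 CPM in Apcdd1+/- replicates 1 and 2 and WT replicates 1 and 2. Telencephalon neurons had 409, 409, 292 and 577 CPM, above midbrain progenitors in each library. Within midbrain, neurons differed from progenitors by -1.75 (adjusted p = 5.77e-13), and within telencephalon by -1.30 (adjusted p = 1.25e-12); the difference between these was not tested. The neuroblast difference was -0.30 in midbrain (adjusted p = 0.0871), not called, and -0.61 in telencephalon (adjusted p = 7.05e-06). Lin28a in neurons was 1.87 above progenitors in midbrain (adjusted p = 7.06e-10) and 0.79 in telencephalon (adjusted p = 0.00102), with 97.7, 135, 116 and 64.8 CPM in midbrain neurons and 42.4, 60.8, 49.3 and 81.7 CPM in telencephalon neurons. Telencephalon neurons also had more Sox2, 269 ± 90.0 CPM against 148 ± 19.7 CPM in midbrain neurons. Mki67, a marker of dividing cells, was at 200 ± 38.1 CPM in telencephalon neurons and 133 ± 92.0 CPM in midbrain neurons. Progenitors had 227 ± 44.3 CPM of it in telencephalon and 266 ± 97.7 CPM in midbrain. Neurons with fewer progenitor markers had 56.6 ± 20.1 CPM. The regional neurons were not split by progenitor markers, and the part of progenitor RNA in their levels was not tested.

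**Figure D4:**
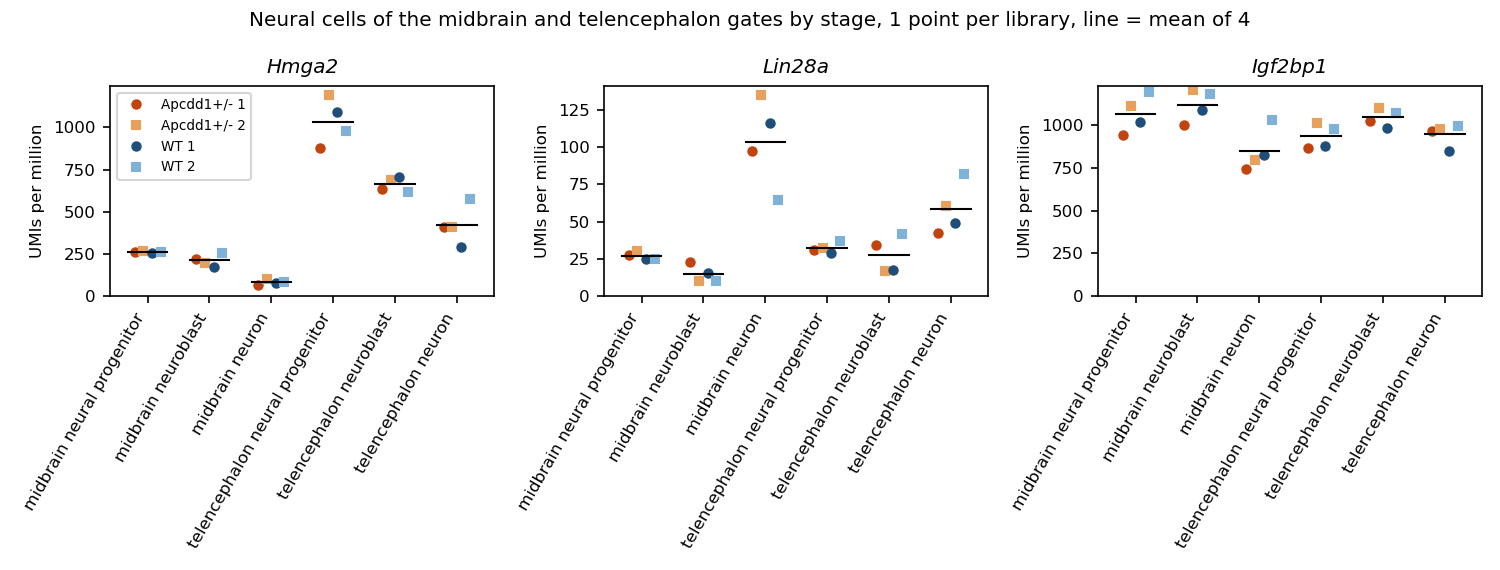
Hmga2, Lin28a and Igf2bp1 in CPM (y axis, from 0) in progenitors, neuroblasts and neurons of the midbrain gate and then of the telencephalon gate (x axis), 1 point per library and a line at the mean. Hmga2 is at 261 CPM in midbrain and 1034 CPM in telencephalon progenitors and steps down with stage in both gates.

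The 3 Igf2bp genes changed far less with stage. Igf2bp1, the zipcode-binding protein of the family, measured 697, 833, 772 and 968 CPM in neurons of Apcdd1+/- replicates 1 and 2 and WT replicates 1 and 2, against 937, 1101, 1008 and 1078 CPM in their progenitors. The ranges overlapped over libraries, yet neurons were lower in each library, at -0.37 (SE 0.06, adjusted p = 1.62e-06). Igf2bp3 was at 249 ± 29.1 CPM in neurons and 306 ± 16.5 CPM in progenitors, at -0.33 (SE 0.06, adjusted p = 1.16e-05), and Igf2bp2 at 79.4 ± 7.63 CPM in neurons and 92.1 ± 4.54 CPM in progenitors, at -0.24 (SE 0.08, adjusted p = 0.0103). The Igf2bp2 call was lost without Apcdd1+/- replicate 1 (-0.20, adjusted p = 0.0689), with cells thinned (-0.23, adjusted p = 0.109) and without the library block (-0.24, adjusted p = 0.116). Igf2bp2 was further from 0 with DESeq2 (-0.39), within midbrain (-0.47) and within telencephalon (-0.44), and called in each. Within telencephalon, Igf2bp1 (-0.0093, adjusted p = 0.922) and Igf2bp3 (-0.058, adjusted p = 0.642) did not pass, while both passed within midbrain (-0.36 and -0.28). None of the 3 passed between neuroblasts and progenitors, where the differences were 0.16, -0.061 and -0.062. Igf2bp3 passed with DESeq2 (-0.17, adjusted p = 0.00258) and Igf2bp1 within telencephalon (0.19, adjusted p = 0.0145). In all, 2 of 6 members were called higher and 4 lower in neurons, beside 34.3% higher and 30.3% lower over all genes. The members' median was -0.29 against 0.036 over all genes.

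Among classes, the Igf2bp genes were led by different cells. Igf2bp3, known as an oncofetal protein that many carcinomas express, was highest in epithelium at 455 and 428 CPM in the Apcdd1+/- libraries and 395 and 432 CPM in the WT libraries. All 4 were above every progenitor library, a log2 difference of 0.44 (SE 0.06, adjusted p = 8.68e-08), in a comparison that called 49% of all genes tested (25.5% higher and 23.5% lower). Mesenchyme, progenitors, neuroblasts, neurons and neural crest or glia followed at 224 to 313 CPM, each overlapping its neighbour. Igf2bp1 was highest in neuroblasts at 1139.5 ± 108 CPM, overlapping progenitors, and from there down to epithelium at 763 ± 65.0 CPM each class overlapped the next. Igf2bp2, linked to metabolism in mice, was within 79.4 to 92.1 CPM in its first 6 classes, from progenitors to neurons, all overlapping, then at 40.2 ± 16.0 CPM in endothelium. In epithelium, Igf2bp1 was lower than in progenitors, at -0.48 (SE 0.07, adjusted p = 1.54e-08), as was Hmga2, at -0.41 (SE 0.09, adjusted p = 0.000191), while Igf2bp2 did not pass (-0.083). With DESeq2, Igf2bp2 was called lower (-0.31, adjusted p = 0.0345), Hmga2 was at -0.63 and Igf2bp3 at 0.22, both still called.

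**Figure D5:**
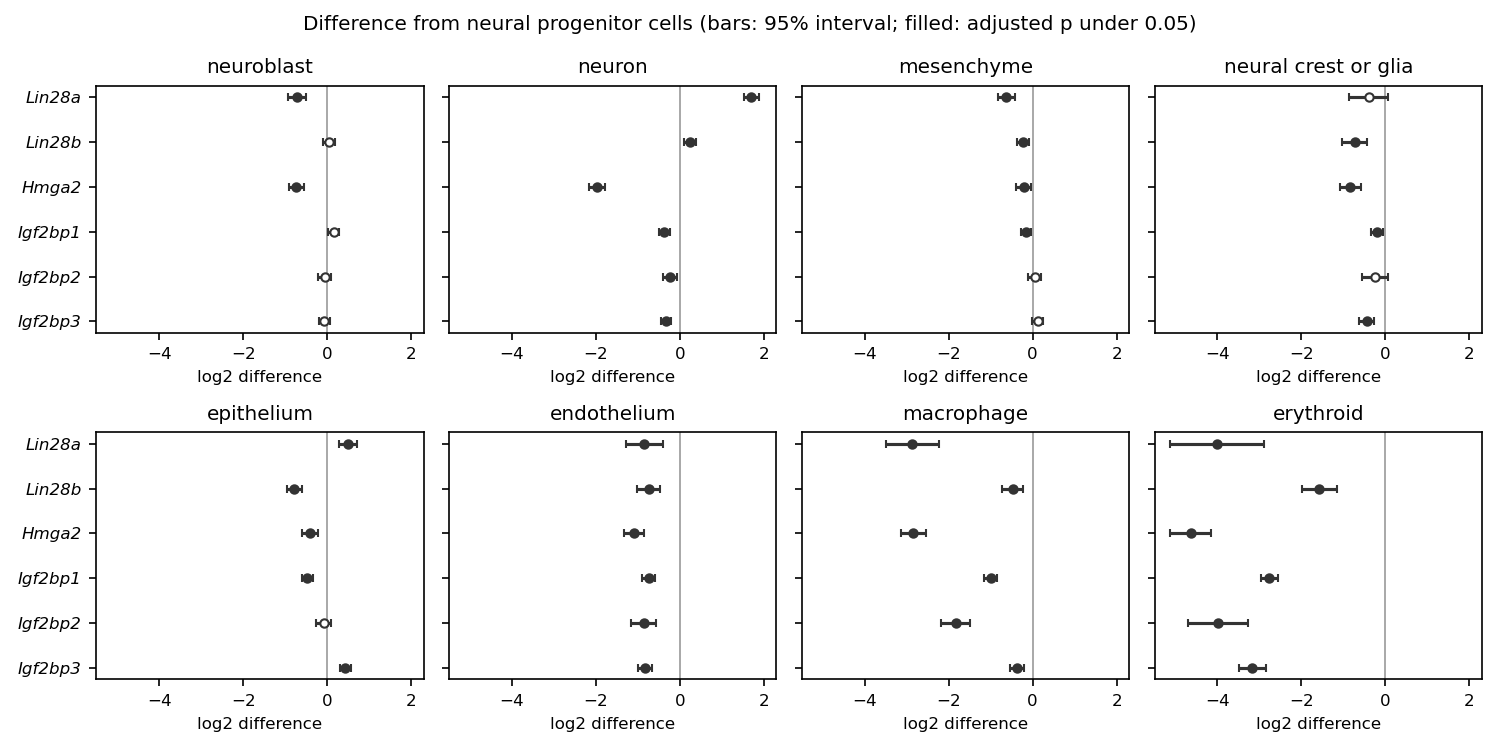
Log2 difference of each class from neural progenitor cells (x axis) for the 6 genes (y axis), with 95% intervals and filled points at an adjusted p under 0.05. Lin28a lies at 1.70 in neurons where Hmga2 lies at -1.98. All 6 points lie below 0 in neural crest or glia, endothelium, macrophage and erythroid cells. In neural crest or glia, the points of Lin28a and Igf2bp2 are not filled.

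In mesenchyme, the loose tissue of the head, 4 members were lower than in progenitors and none higher; the test called 51.8% of all genes tested (24.8% higher and 27% lower). Lin28a had the largest difference, with 24.4 ± 3.17 CPM in mesenchyme, at -0.62 (SE 0.10, adjusted p = 1.74e-07). That call was lost with cells thinned to equal depth (-0.33, adjusted p = 0.0599); mesenchyme cells were deeper, at a median of 15080 UMIs against 10323 UMIs in progenitors. Lin28b (-0.22, SE 0.07, adjusted p = 0.00641), Hmga2 (-0.21, SE 0.09, adjusted p = 0.0357) and Igf2bp1 (-0.16, SE 0.06, adjusted p = 0.0311) moved less, and each of these calls was lost when a library was left out. Without Apcdd1+/- replicate 1, the values were -0.19 (adjusted p = 0.0565) for Lin28b, -0.23 (adjusted p = 0.0615) for Hmga2 and -0.13 (adjusted p = 0.159) for Igf2bp1. Hmga2 was also not called without Apcdd1+/- replicate 2 (-0.15) or WT replicate 1 (-0.23), nor Igf2bp1 without WT replicate 1 (-0.15) or WT replicate 2 (-0.15). Without the library block none of these 3 passed, and with DESeq2 Hmga2 did not (-0.27, adjusted p = 0.08). Neural crest or glia cells, 15 to 38 per library, were lower in Lin28b (-0.73, SE 0.15, adjusted p = 0.000155), Hmga2 (-0.83, SE 0.12, adjusted p = 2.36e-07), Igf2bp3 (-0.44, SE 0.09, adjusted p = 0.000159) and Igf2bp1 (-0.21, SE 0.07, adjusted p = 0.0372). These are 4 of 6 members, against 19.8% of all genes called in either direction. The Igf2bp1 call was lost without Apcdd1+/- replicate 1 (-0.17), Apcdd1+/- replicate 2 (-0.20) or WT replicate 1 (-0.20), without the library block (-0.20, adjusted p = 0.288) and without the cells of most UMIs (-0.18, adjusted p = 0.14). Thinned, Lin28b (adjusted p = 0.192) and Igf2bp3 (-0.31, adjusted p = 0.501) were not called either. With DESeq2, Lin28a (-0.66, adjusted p = 0.0241) and Igf2bp2 (-0.48, adjusted p = 0.0245) were called lower as well, and Igf2bp1 was at -0.46 and Igf2bp3 at -0.70, so the count of 4 depends on the fit.

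Endothelium, macrophages and erythroid cells were lower than progenitors in all 6 members, with all libraries of each class below all progenitor libraries. The test called 53% of all genes tested (26.3% higher and 26.6% lower) in endothelium. It called 64.3% in macrophages (29.6% higher and 34.7% lower) and 51% in erythroid cells (19.5% higher and 31.4% lower). In endothelium the 6 differences lay between -1.10 (Hmga2) and -0.74 (Igf2bp1), and each passed the test. With cells thinned, Lin28a (-0.71, adjusted p = 0.234) and Igf2bp2 (-0.63, adjusted p = 0.0886) did not pass, and Lin28b was at -1.40. Macrophages, which arise in the yolk sac, split the group. Lin28a (-2.86, SE 0.32, adjusted p = 2.08e-11) and Hmga2 (-2.84, SE 0.14, adjusted p = 4.91e-24) were lowest against progenitors, while Lin28b (-0.48, SE 0.12, adjusted p = 0.000624) and Igf2bp3 (-0.37, SE 0.08, adjusted p = 9.69e-05) differed least. The Lin28b call in macrophages, whose median depth was 17078 UMIs, was lost with cells thinned (-0.28, adjusted p = 0.527), while Igf2bp3 was then at -0.78. With DESeq2 Lin28b was at -0.77 and Igf2bp3 at -0.66. Macrophages had 2 to 5 Lin28a UMIs per library.

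Erythroid cells of this stage are large nucleated red cells of yolk sac origin, here with 2663504 UMIs in 126 cells, and they held little of any member. Hmga2 had 2, 7, 11 and 4 UMIs in Apcdd1+/- replicates 1 and 2 and WT replicates 1 and 2, or 2.76, 12.3, 19.7 and 4.93 CPM, and differed by -4.64 (SE 0.24, adjusted p = 3.47e-23). Lin28a had 2, 0, 0 and 1 UMIs. Pooled, that is 1.13 CPM (exact Poisson 95% interval 0.232 to 3.29, counting error only) in erythroid cells against 39.7 CPM in progenitors, a ratio of 0.0284 (exact 95% interval 0.00586 to 0.0831). Igf2bp2 had 7 UMIs in all. Igf2bp1 kept the most reads, 182 UMIs or 69.1 ± 6.16 CPM, at -2.76 (SE 0.11, adjusted p = 5.04e-29), and Igf2bp3 was at -3.17 (SE 0.16, adjusted p = 1.19e-23). Lin28b, at 13.5 ± 1.47 CPM and -1.57 (SE 0.21, adjusted p = 6.87e-09), had the smallest difference of the 6. Mki67, a marker of dividing cells, was at 355 ± 66.0 CPM in erythroid cells against 248 ± 52.2 CPM in progenitors.

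Division was examined within progenitors, split by 8 cell cycle markers into 5676 cycling cells (5 or more markers) and 4130 others. The cycling cells were deeper, with a median of 12269 UMIs against 8083.5 UMIs in the others. Lin28a was higher in cycling cells in 4 of 4 libraries, at 43.4, 42.7, 35.4 and 49.2 CPM against 38.1, 30.5, 27.1 and 44.7 CPM in the others, a log2 difference of 0.31 (SE 0.06, adjusted p = 0.000238). Igf2bp3 was also higher, at 0.18 (SE 0.03, adjusted p = 4.24e-06). The test called 21.3% of all genes tested (11.3% higher and 9.97% lower). With cells thinned to equal depth, neither passed: Lin28a was at 0.18 (adjusted p = 0.415) and Igf2bp3 at 0.14 (adjusted p = 0.0541). Nor did Lin28a (0.31, adjusted p = 0.329) or Igf2bp3 (0.17, adjusted p = 0.433) pass without the library block. The other 4 members differed by -0.019 to 0.042 and did not pass. For Hmga2 the 95% interval was -0.01 to 0.09, and it was at 500.4 ± 41.0 CPM in cycling and 492 ± 55.8 CPM in other progenitors.

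Genes of the let-7 processing machinery, 11 in all, did not move as a block. In neurons against progenitors 4 of 11 were higher and 4 lower (median log2 difference -0.0012), beside 34.3% higher and 30.3% lower over all genes (median 0.036). Tut7, a uridyltransferase that LIN28A works with, was higher at 65.9 ± 8.24 CPM in neurons and 47.4 ± 3.42 CPM in progenitors, 0.45 (adjusted p = 1.84e-06). Trim71, the mammalian relative of the worm timing gene lin-41 and itself a let-7 target, was higher at 0.36 (adjusted p = 0.00204). Ago2, the Argonaute slicer, was lower at -0.51 (adjusted p = 1.97e-06), as was Xpo5, the exporter of precursors, at -0.42 (adjusted p = 0.000342). In mesenchyme 3 of 11 were higher and 2 lower (median log2 difference 0.00093), beside 24.8% higher and 27% lower over all genes (median -0.023), with Tut4 at 0.43 (adjusted p = 1.55e-05) and Tarbp2, a Dicer partner, at 0.37 (adjusted p = 1.54e-05), and with Dis3l2, the nuclease for tailed precursors, at -0.38 (adjusted p = 0.00488). In erythroid cells, 2 of 11 were higher and 3 lower, beside 19.5% higher and 31.4% lower over all genes. Trim25, an RNA-binding ubiquitin ligase, measured 22.8 ± 11.4 CPM there and 1.55 ± 0.522 CPM in progenitors, 4.96 (adjusted p = 1.33e-16), and Tut7 was at 1.85 (adjusted p = 1.38e-17). Tut4 was lower at -1.26 (adjusted p = 2.56e-08), and Trim71 had 2 UMIs in all erythroid cells against 28.1 ± 2.95 CPM in progenitors.

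Of 18 other genes known as let-7 targets or growth regulators, 6 were higher and 10 lower in neurons than in progenitors (median -0.51), beside 34.3% higher and 30.3% lower over all genes and a median of 0.036. Hmga2 shared its decline there with Cdk6, a G1 kinase, at -1.47 (adjusted p = 1.11e-14), and Plagl1, an imprinted zinc finger gene, at -1.40 (adjusted p = 3.22e-10). Among those higher in neurons, as Lin28a was, Nr6a1, an orphan nuclear receptor of early embryos, was at 112 ± 7.89 CPM in neurons and 29.4 ± 2.16 CPM in progenitors (adjusted p = 2.02e-25), and Arid3a, an AT-rich DNA-binding factor, at 2.03 (adjusted p = 1.63e-22). In mesenchyme, 4 were higher and 12 lower (median -0.31), beside 24.8% higher and 27% lower over all genes and a median of -0.023, with Arid3a at 1.59 (adjusted p = 1.85e-19), Arid3b at 0.40 (adjusted p = 0.00165), Plagl1 at -2.81 (adjusted p = 4.23e-20) and Mycl, a Myc family gene, at -2.57 (adjusted p = 9.12e-31). In erythroid cells, 3 were higher and 11 lower, beside 19.5% higher and 31.4% lower over all genes. Ccnd1, the cyclin that drives G1, measured 5.77 ± 3.58 CPM in erythroid cells and 936 ± 36.6 CPM in progenitors, -6.13 (adjusted p = 6.37e-24). Arid3a was at 4.10 (adjusted p = 6.01e-27), and Mycl had 1 UMI in all. Plagl2 was counted as higher, at 0.51 (adjusted p = 0.00236), after scaling by TMM. Its CPM before that scaling was lower, at 50.8 ± 10.3 in erythroid cells and 77.2 ± 5.46 in progenitors.

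The insulin-like growth factor (IGF) axis, from which the Igf2bp genes take their name, gave different counts in different classes. Igf2, the ligand whose message IGF2BP proteins bind, averaged 1899 CPM in endothelium and 1061 CPM in epithelium, and it measured 296 ± 73.7 CPM in mesenchyme and 11.3 ± 4.14 CPM in progenitors, 4.82 (adjusted p = 1.05e-28). Igf1 was at 80.0 ± 5.65 CPM in mesenchyme and 0.609 ± 0.128 CPM in progenitors, 7.06 (adjusted p = 2.11e-38). Of 11 genes, 6 were higher and 3 lower in mesenchyme (median 0.56), beside 24.8% higher and 27% lower over all genes, with the binding proteins Igfbp5 (-2.05, adjusted p = 3.65e-18) and Igfbp2 (-0.95, adjusted p = 1.35e-13) lowest. In epithelium 10 were higher and none lower, beside 25.5% higher and 23.5% lower over all genes. In neurons 3 were higher, Igf2 (1.34, adjusted p = 1.89e-06) and the insulin receptor gene Insr (0.83, adjusted p = 2.87e-08) most, and 2 lower, Igfbp4 (-0.32, adjusted p = 0.00376) and Igfbp2 (-0.20, adjusted p = 0.0492), beside 34.3% higher and 30.3% lower over all genes. In erythroid cells none was higher and 5 were lower, beside 19.5% higher and 31.4% lower over all genes, among them Igfbp2 (-4.97, adjusted p = 1.88e-16) and Igfbp5, with 4 UMIs in all. Igf2 in neurons ranged over 4.45 to 49.6 CPM between libraries, a range that overlapped progenitors.

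Genes of late, gliogenic progenitors, which in mouse cortex come up as Lin28 and Hmga2 decline, passed the filter on low counts in 6 of 11 cases, and no summary over them is given. In neurons Zbtb20, a zinc finger gene of late progenitors, was at 109 ± 17.5 CPM against 56.6 ± 14 CPM in progenitors, 0.93 (adjusted p = 1.58e-13). Slc1a3, a glutamate transporter of radial glia, was lower at -1.66 (adjusted p = 1.61e-12), and Nfib, a nuclear factor I gene, at -1.65 (adjusted p = 1.1e-11). In mesenchyme Sox9 (0.86, adjusted p = 4.7e-11) and Slc1a3 (0.85, adjusted p = 2.88e-10) were higher and Nfib lower (-0.49, adjusted p = 0.000865). Sox9 had no UMI in any erythroid library, for which the limit taken was 3 UMIs of the pooled total or 1.13 CPM (the exact Poisson bound used for Lin28a above gives 1.38 CPM), and Nfib had 4.

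Likeness of pattern was measured as Pearson's r of log2(mean CPM + 1) over the 9 classes, with 9076 other genes. These are descriptions over 9 points that share libraries, with erythroid cells far below the rest, so high values are easily reached. Nearest to Lin28a were Tm7sf2 (r = 0.981), Swsap1 (r = 0.979) and Dapk1 (r = 0.979). Dapk1, a death-associated kinase, was at 65.6 CPM in neurons and 22.6 CPM in progenitors. Lin28b was most like Ndufs4 (r = 0.986), Rnf157 (r = 0.981) and Pdzd11 (r = 0.979). The closest to Hmga2 were Zkscan17 (r = 0.991), Prkd3 (r = 0.989) and Arglu1 (r = 0.987). Igf2bp1 was closest to 1110004F10Rik (r = 0.999), Hnrnpk (r = 0.997) and Zfp207 (r = 0.996), of which Hnrnpk encodes an RNA-binding protein. For Igf2bp2, Dcakd (r = 0.996) and Nono (r = 0.996) were among them, and for Igf2bp3 Stub1 (r = 0.993), Arih1 (r = 0.993) and Echs1 (r = 0.991). Between members, Igf2bp1 and Igf2bp2 were most alike (r = 0.984), and Lin28a and Hmga2 least (r = 0.776).

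The comparison of genotypes, Apcdd1+/- against WT, gave no call among the members or among all genes. edgeR called 0% of genes over all cells, in progenitors, in neurons and in mesenchyme, and 188, 215, 250 and 178 genes had an unadjusted p under 0.05 in these. DESeq2 called 3 genes over all cells and 0 in the other 3. Without Apcdd1+/- replicate 1, edgeR called 109 genes over all cells, 49 in progenitors, 20 in neurons and 11 in mesenchyme, and without Apcdd1+/- replicate 2 it called 222, 117, 80 and 36. Without WT replicate 1 or WT replicate 2 it called 0 in the first 3, and 5 or 2 in mesenchyme, and no member was called in progenitors or neurons without any 1 library. In progenitors, the log2 differences with 95% intervals were 0.044 (-0.35 to 0.44) for Lin28a, 0.058 (-0.28 to 0.39) for Lin28b, 0.060 (-0.26 to 0.38) for Hmga2, 0.0093 (-0.30 to 0.32) for Igf2bp1, -0.013 (-0.30 to 0.27) for Igf2bp2 and 0.099 (-0.20 to 0.40) for Igf2bp3. All 6 groups of libraries overlapped. In neurons they were 0.061 (-0.34 to 0.46) for Lin28a, 0.19 (-0.23 to 0.62) for Lin28b, -0.21 (-0.74 to 0.33) for Hmga2, -0.15 (-0.55 to 0.26) for Igf2bp1, 0.018 (-0.40 to 0.43) for Igf2bp2 and 0.035 (-0.39 to 0.46) for Igf2bp3. A log2 difference of 1 in either direction lies outside each of these 12 intervals. Differences inside them are not excluded by these 2 libraries per genotype. The stage pattern held in each genotype: Lin28a was above its progenitor level in neurons, and Hmga2 below, in 4 of 4 libraries. Tests of whether the genotype difference itself changed between a class and progenitors called no member in any of 8 classes.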

How the data were processed

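The authors deposited raw UMI counts per gene and cell for each of the 4 libraries. Per the labels' protocols, heads were stored overnight in a tissue preservation solution, then dissociated, sorted on DAPI to remove dead cells, made into libraries with a DNBelab C kit and sequenced on an MGISEQ-2000. Per the submitters' processing notes the build was mm10 and Scanpy 1.9.1 was used, and per the file headers the matrices were written by PISA 0.12. The sources used here give no aligner, annotation release, cell filter or part of the transcript read. The barcode list of Apcdd1+/- replicate 1 names 3994 cells where its matrix has 9735, so cells were taken from the matrices.

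From these counts, 24259 cells with at least 500 genes and at most 10% mitochondrial UMIs were kept, and 17636 were placed in 9 classes by the number of markers detected. None of the 6 genes was a marker. A gene missing from a matrix was taken as 0. No doublet caller was run; cells that met more than 1 gate were left out, and doublets may remain. Counts were summed per class and library (at least 10 cells) and tested with edgeR 4.0.16 in R 4.3.3 (TMM, filterByExpr, quasi-likelihood F test, library as a block except between genotypes), with Benjamini-Hochberg adjustment and a threshold of 0.05; 12753 genes were tested between classes. SE is the log2 difference over the square root of F. The scripts were tested on simulated data. Intervals over UMIs cover counting error only. The members, markers, gene lists, neuron factors and rules for naming were chosen with earlier results of these data known. Named genes of a list were up to 2 with the highest and 2 with the lowest called log2 difference, at a mean of at least 10 CPM over the 2 classes, for neurons, mesenchyme and erythroid cells; likeness was read among genes of at least 20 CPM in 1 class that were no gate markers. Alternatives were DESeq2 1.42.0, no filter on low counts, no library block or a replicate block, cells thinned to 2000 UMIs, the top 5% of cells by UMIs left out, gates that need 1 more marker and each library left out. Sequences came from RefSeq (GRCm38.p6) and GENCODE vM21. Some genes and 1 sequence that these steps cover are not reported here.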

Additional observations from a re-analysis of the deposited data

Results flagged for a closer look

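Igf2bp3 in neuroblasts was at 311 CPM in Apcdd1+/- replicate 1, apart from the other 3 libraries, which lay at 282 to 286 CPM (285 CPM in Apcdd1+/- replicate 2 and 282 and 286 CPM in WT). Its gap to the nearest library exceeded Dixon's 95% critical value for 4 samples. It was 1 of 54 pairs of a member and a class examined, and chance alone marks about 1 group in 20. The 4 libraries of the class are 2 of each genotype.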

How the results depend on the processing

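Between gates, 499 values of called members were recomputed under the alternatives: 444 kept their call and direction and 55 kept the direction without the call; none changed sign. Of 185 values of members not called, 159 stayed so with the same sign, 6 became called and 20 changed sign. With cells thinned to 2000 UMIs, 7300 genes were tested between classes.

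The number of genes called was 3130 for neuroblasts, 8245 for neurons, 6611 for mesenchyme, 2526 for neural crest or glia, 6249 for epithelium, 6753 for endothelium, 8200 for macrophages and 6500 for erythroid cells against progenitors, 1025 for hindbrain and 1862 for midbrain against telencephalon, 2772 for cycling progenitors and 0 between genotypes. With cells thinned these were 2071, 4491, 2948, 423, 2403, 2576, 2913 and 1866, then 209 and 546, then 754, and 1 between genotypes over all cells. Without the library block, 1280 genes were called in neuroblasts, 4393 in mesenchyme, 627 in hindbrain, 1020 in midbrain and 312 in cycling progenitors. With DESeq2, 3851 were called in neural crest or glia, 1413 in cycling progenitors and 3 between genotypes over all cells. Its size factors moved the median gene against edgeR by -0.27 in endothelium, -0.26 in neural crest or glia, -0.29 in macrophages, -0.24 in erythroid cells, -0.22 in epithelium, -0.15 in neurons and -0.11 in neuroblasts. Within the midbrain gate 388 genes were called in neuroblasts and 3725 in neurons, and within the telencephalon gate 827 and 2385. With 1 library left out, counts ranged over 2080 (without WT replicate 1) to 2908 in neuroblasts, 672 (without Apcdd1+/- replicate 2) to 945 in hindbrain and 1746 (without Apcdd1+/- replicate 1) to 2583 in cycling progenitors.

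Between genotypes, no filter on low counts gave 3 genes over all cells, 9 in progenitors and 13 in mesenchyme. Replicate numbers are shared between genotypes, but nothing ties them to a litter or day, and the correlation of same-numbered deviations was 0.263 over all cells, 0.139 in progenitors, 0.023 in neurons and 0.191 in mesenchyme. With the replicate block, 5 genes were called over all cells, 3 in progenitors, 3 in neurons and 12 in mesenchyme, no member among them in progenitors or neurons. Leaving out 1 library gave 0 to 222 genes over all cells, 0 to 117 in progenitors, 0 to 80 in neurons and 2 to 36 in mesenchyme, with the single library left in a genotype assumed to vary like the others.

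Values that changed sign had not passed, though not all were small. Thinned, these were Lin28b in neuroblasts (-0.057), Igf2bp2 in mesenchyme (-0.027), neural crest or glia (0.11), epithelium (0.061) and cycling progenitors (0.056), Igf2bp3 in hindbrain (-0.14), Hmga2 in cycling progenitors (-0.020), and between genotypes Lin28b (-0.018) and Igf2bp2 (0.051) in progenitors and Lin28a (-0.011) and Igf2bp3 (-0.16) in neurons. With DESeq2 they were Lin28b in neuroblasts (-0.055), Igf2bp3 in hindbrain (-0.0064), Igf2bp1 (0.021) and Igf2bp2 (0.014) in cycling progenitors, and Igf2bp2 between genotypes in progenitors (0.0052) and neurons (-0.0087). With no filter, Igf2bp1 (0.011) and Igf2bp2 (0.0051) in cycling progenitors and Igf2bp2 between genotypes in progenitors (0.0049) did so, with the stricter gate Lin28a in midbrain (0.21) and Lin28b in cycling progenitors (-0.0034), and within telencephalon Igf2bp3 in neuroblasts (0.026). With 1 library left out, Igf2bp3 in hindbrain ranged over -0.042 to 0.22, Lin28b over -0.00081 to 0.085 and Igf2bp2 over -0.055 to 0.012 in cycling progenitors, and Apcdd1 between genotypes over -0.32 to 0.39. Between genotypes in progenitors the ranges were -0.16 to 0.29 for Lin28a, -0.088 to 0.23 for Lin28b, -0.088 to 0.20 for Hmga2, -0.093 to 0.11 for Igf2bp1, -0.090 to 0.060 for Igf2bp2 and -0.0024 to 0.19 for Igf2bp3. In neurons they were -0.077 to 0.21 for Lin28a, -0.57 to 0.28 for Hmga2, -0.089 to 0.11 for Igf2bp2 and -0.21 to 0.24 for Igf2bp3. The cause of these shifts was not tested.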
